A study of Rattus norvegicus with 18 samples.

Results

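Peroxisomal enzymes and membrane proteins were followed in rat muscle through 9 genes: Cat, Pxmp4, Hsdl2, Ehhadh, Pex11a, Abcd2, Abcd3, Hacl1 and Phyh. They cover oxidation, transport and division of the peroxisome. Each was represented by the probe set that carries its symbol alone, and each of the 9 had 1 such probe set on the array. A further probe set that lists Pex11a together with other symbols was not used. The 9 were set among 12642 genes tested, out of 16856 with a probe set of 1 symbol, and 9 of 9 passed the filter on dim genes. The lowest group mean among them, 5.94 log2 for Hacl1, lay above the filter at 5.28 log2, so no gene passed through 1 group alone. Cat, Pxmp4 and Hsdl2 were put forward because they stood among the genes that differed most with the animals' own diet. The own-diet differences of the 9 genes are therefore given as a description, with no test.

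The peroxisome is a small organelle bounded by a single membrane. It shortens very-long-chain and branched fatty acids, using oxidases that release hydrogen peroxide, and it holds the enzyme that destroys this peroxide. Shortened acyl chains leave for the mitochondrion, where oxidation is completed. Peroxisomes are sparse in skeletal muscle compared with liver. In rodent liver, many of these genes are known targets of the fatty acid receptor PPARα, which binds DNA with its partner RXR at a repeat of the hexamer AGGTCA.

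RNA levels were measured in a fast hindlimb muscle, the extensor digitorum longus (EDL), of 18 adult female Sprague-Dawley rats of the F2 generation. The 4 groups combine the diet of the founding grandfather with the animal's own diet for 12 weeks. They were high-fat/high-fat (grandfather high-fat, own high-fat; n = 4), high-fat/chow (n = 4), chow/high-fat (n = 5) and chow/chow (n = 5). The high-fat diet supplied 42 or 45% of energy as fat, as the labels write it, and all other labelled conditions were shared. Animals whose grandfather ate the high-fat diet are called the high-fat lineage, the others the chow lineage. The number of founders is not given, and animals of 1 lineage may be related, so p-values measure the spread between these animals only. Whole muscle was used, so fewer cells of a type and less RNA per cell cannot be told apart.

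Values are log2(intensity + 16) after quantile normalization, and every difference is in log2 units. Deposited array medians of intensity spanned 67.52 to 73.97 in high-fat/high-fat, 60.21 to 70.66 in high-fat/chow, 55.02 to 66.45 in chow/high-fat and 66.29 to 70.52 in chow/chow animals. The number of arrays limits the precision. Of 11 genes listed as fast-fibre markers, 8 were measured, Tnnt3, Tnni2 and Actn3 among them, and all 8 passed the filter. The list includes Ckm and Acta1, so it is not read as a measure of fast fibres alone. The fast myosin gene Myh4, with Mylpf and Atp2a1, was not analysed here.

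The promoters of 4 of the genes are shown: those of Cat, Pxmp4 and Hsdl2, which were put forward for their own-diet difference, and that of the transporter Abcd2, whose difference was near zero. Each window runs from 250 bases before to 50 bases after the gene's start in RefSeq (GRCr8), 300 bases on the gene's strand, and 9 of 9 genes were matched by gene ID. Capitals mark the hexamer AGGTCA, the letters CCAAT and the letters GGGCGG, searched on both strands. A minus-strand match appears as its reverse complement.
Cat: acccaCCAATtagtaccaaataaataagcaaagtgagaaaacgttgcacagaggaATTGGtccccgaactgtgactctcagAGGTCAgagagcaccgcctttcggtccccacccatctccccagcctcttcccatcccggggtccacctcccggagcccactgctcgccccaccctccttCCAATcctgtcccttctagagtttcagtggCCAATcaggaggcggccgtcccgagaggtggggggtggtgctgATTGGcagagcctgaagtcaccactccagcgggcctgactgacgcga
Pxmp4: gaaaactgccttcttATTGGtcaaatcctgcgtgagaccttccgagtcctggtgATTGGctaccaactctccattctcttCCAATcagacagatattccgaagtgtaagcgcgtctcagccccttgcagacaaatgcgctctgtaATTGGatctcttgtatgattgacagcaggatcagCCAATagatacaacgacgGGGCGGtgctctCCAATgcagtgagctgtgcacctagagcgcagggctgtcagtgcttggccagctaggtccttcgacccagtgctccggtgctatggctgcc
Hsdl2: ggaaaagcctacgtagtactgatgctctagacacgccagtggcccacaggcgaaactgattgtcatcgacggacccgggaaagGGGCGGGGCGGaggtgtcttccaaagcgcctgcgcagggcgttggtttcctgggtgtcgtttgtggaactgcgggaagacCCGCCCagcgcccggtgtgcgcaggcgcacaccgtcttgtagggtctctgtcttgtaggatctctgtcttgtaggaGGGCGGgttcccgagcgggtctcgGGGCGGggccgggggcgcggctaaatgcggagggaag
Abcd2: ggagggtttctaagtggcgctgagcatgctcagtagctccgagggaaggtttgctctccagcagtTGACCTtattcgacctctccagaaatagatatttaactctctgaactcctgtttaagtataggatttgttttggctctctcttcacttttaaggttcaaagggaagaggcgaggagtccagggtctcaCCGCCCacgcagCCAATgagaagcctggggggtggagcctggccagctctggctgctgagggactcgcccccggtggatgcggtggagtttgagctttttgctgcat
The windows are chr3:110329477-110329776 on the minus strand for Cat and chr3:163570780-163571079 on the minus strand for Pxmp4. Those of Hsdl2 and Abcd2 are chr5:79238631-79238930 on the plus strand and chr7:124191153-124191452 on the minus strand. AGGTCA occurred in Cat, 169 bases before the start, and in Abcd2, 185 bases before it, so in 2 of 9 genes against 16.2% of 33469 promoters. The direct repeat of the hexamer with a single base between its copies, whose letters include those of the single hexamer, occurred in 0 of 9 genes and in 0.0538% of all promoters. CCAAT occurred 5 times in Cat, 6 times in Pxmp4 and once each in Ehhadh and Abcd2, so in 4 of 9 genes against 37.5% of promoters. GGGCGG occurred in 7 of 9 genes, all but Cat and Phyh, against 33.1% of promoters. Hsdl2 held it 5 times, and the first pair of these matches overlaps. TATAAA was found in 0 of 9 genes and in 14.2% of promoters. A match describes letters in this window and does not show that a factor binds there.

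**Figure D1:**
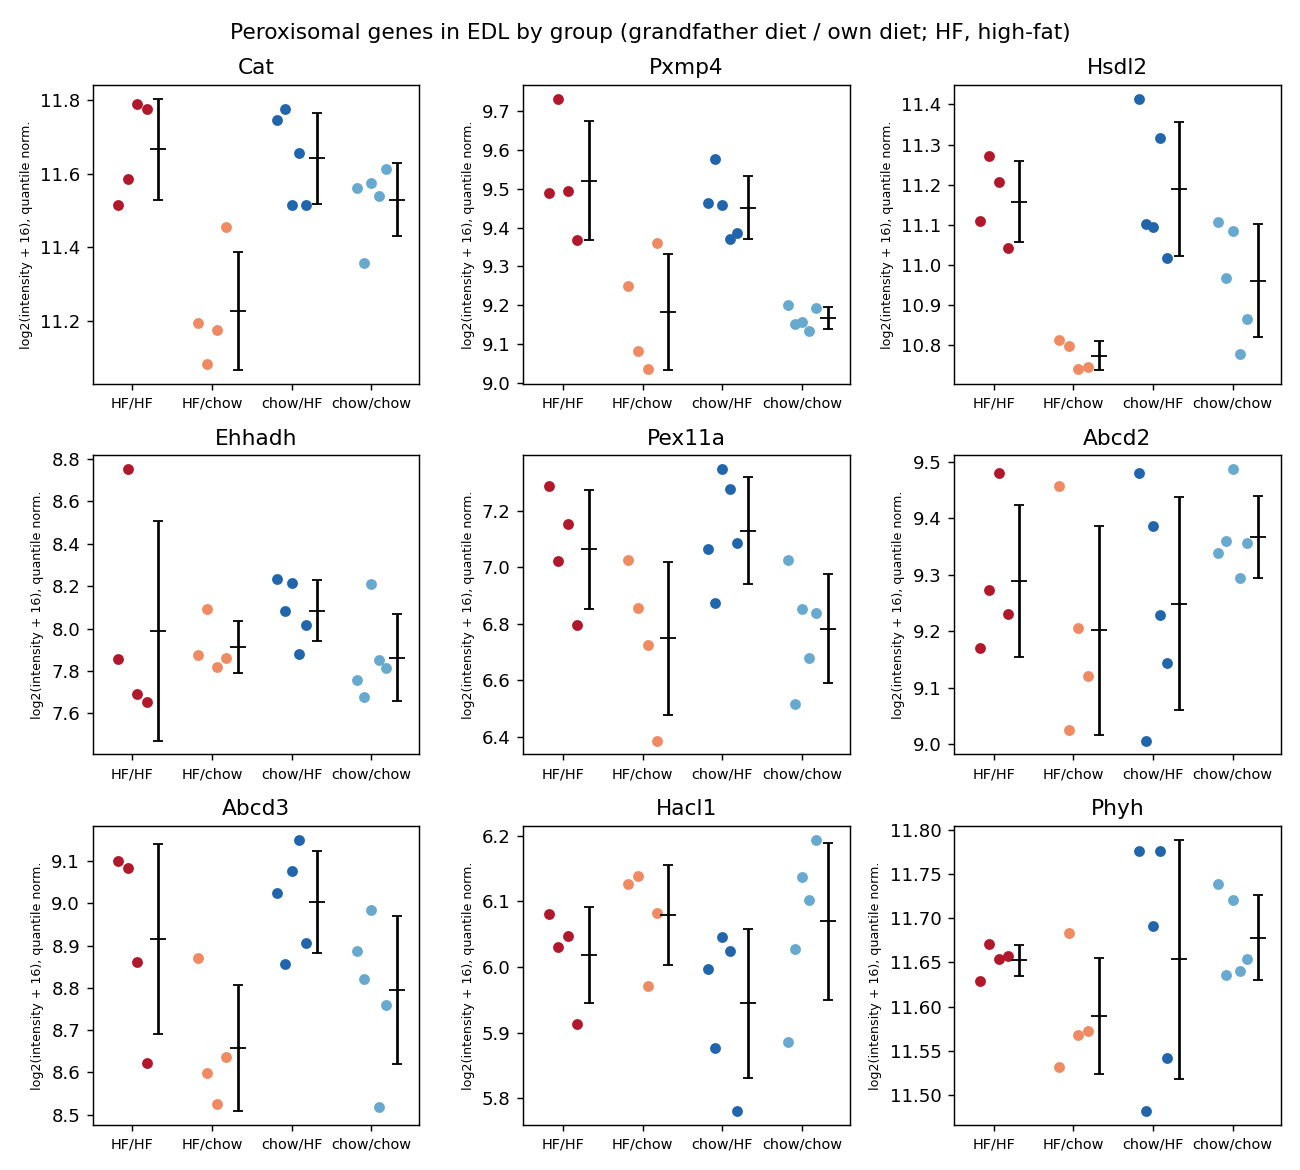
Level of each of the 9 genes in every animal, as quantile-normalized log2(intensity + 16), by group (grandfather's diet, then own diet; HF, high-fat); dots are animals, and the bar beside them is the mean ± SD (n = 4, 4, 5 and 5). Means of Cat, Hsdl2, Pex11a, Abcd2, Abcd3 and Phyh are lowest in the high-fat/chow animals. Pxmp4 lies higher in both groups that ate the high-fat diet themselves.

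Cat encodes catalase, which breaks hydrogen peroxide into water and oxygen in the peroxisomal matrix. Its level was 11.51, 11.59, 11.79 and 11.77 in high-fat/high-fat animals, against 11.19, 11.08, 11.18 and 11.46 in high-fat/chow animals. In the other lineage it was 11.74, 11.78, 11.51, 11.66 and 11.52 in chow/high-fat animals, against 11.56, 11.36, 11.57, 11.54 and 11.61 in chow/chow animals. The high-fat/chow animals were the low ones: they did not overlap with high-fat/high-fat animals, whereas the chow-lineage groups overlapped. Group means were 11.67 ± 0.14, 11.23 ± 0.16, 11.64 ± 0.12 and 11.53 ± 0.10 (SD; n = 4, 4, 5 and 5) in high-fat/high-fat, high-fat/chow, chow/high-fat and chow/chow animals. Averaged over lineages, Cat was 0.28 higher on the animals' own high-fat diet (SE 0.061, 95% confidence interval 0.15 to 0.40), a fold of 1.21. The difference was 0.44 (SE 0.092, interval 0.25 to 0.63) in the high-fat lineage and 0.11 (SE 0.082, interval -0.06 to 0.28) in the chow lineage. In the chow lineage it was 0.069 without chow/chow replicate 2, and -0.0066 with the table as deposited, where the median of all genes was -0.13.

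Pxmp4 encodes an integral membrane protein of the peroxisome whose function is little understood. It measured 9.49, 9.73, 9.49 and 9.37 in high-fat/high-fat animals, against 9.25, 9.08, 9.04 and 9.36 in high-fat/chow animals. Chow/high-fat animals had 9.46, 9.58, 9.46, 9.37 and 9.39, against 9.20, 9.15, 9.16, 9.13 and 9.19 in chow/chow animals. Every animal on its own high-fat diet lay above every chow-fed animal of its lineage, narrowly so in the high-fat lineage. The own-diet difference was 0.31 (SE 0.055, interval 0.20 to 0.43) averaged, 0.34 in the high-fat lineage and 0.28 in the chow lineage. As deposited, without quantile normalization, the values within lineages were 0.49 and 0.14, while the median of all genes was 0.11 in the high-fat lineage and -0.13 in the chow lineage.

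Hsdl2 encodes a short-chain dehydrogenase-like protein found in peroxisomes and carries a sterol carrier domain. Its levels were 11.11, 11.27, 11.21 and 11.04 in high-fat/high-fat animals, against 10.81, 10.80, 10.74 and 10.75 in high-fat/chow animals. Chow/high-fat animals had 11.41, 11.10, 11.10, 11.32 and 11.02, against 11.11, 10.97, 11.08, 10.78 and 10.87 in chow/chow animals. As for Cat, the high-fat/chow group was the lowest, and it was also the tightest, with an SD of 0.036; the chow-lineage groups overlapped. The own-diet difference was 0.31 (SE 0.061, interval 0.18 to 0.43) averaged, 0.38 in the high-fat lineage and 0.23 in the chow lineage. As deposited the value in the chow lineage was 0.10.

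Pex11a encodes a membrane protein that elongates peroxisomes before they divide. It had 7.29, 7.02, 7.15 and 6.79 in high-fat/high-fat animals, against 7.02, 6.85, 6.73 and 6.39 in high-fat/chow animals. It had 7.06, 6.87, 7.35, 7.28 and 7.09 in chow/high-fat animals, against 7.02, 6.52, 6.85, 6.68 and 6.84 in chow/chow animals. The groups overlapped in both lineages, although 9 of 9 animals on the high-fat diet exceeded the mean of chow-fed animals of the same lineage. Its difference was the highest of the 9 averaged over lineages, at 0.33 (SE 0.093, interval 0.14 to 0.53), a fold of 1.26, with 0.32 in the high-fat lineage and 0.35 in the chow lineage. Without high-fat/chow replicate 4 the value in the high-fat lineage was 0.20, and as deposited that in the chow lineage was 0.21. Pex11a was not put forward for its own-diet rank, but its value comes from the same comparison and is likewise a description.

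The transporters Abcd2 and Abcd3 carry activated fatty acids across the peroxisomal membrane, Abcd2 chiefly very-long-chain and polyunsaturated ones and Abcd3 branched and dicarboxylic ones. Abcd3 was 9.10, 9.08, 8.86 and 8.62 in high-fat/high-fat animals, against 8.87, 8.60, 8.52 and 8.64 in high-fat/chow animals. In the chow lineage it was 9.03, 8.86, 9.08, 9.15 and 8.91 in chow/high-fat animals, against 8.89, 8.82, 8.98, 8.52 and 8.76 in chow/chow animals. High-fat/high-fat replicate 4 was the low animal of its group, and the groups overlapped in both lineages. The averaged difference was 0.23 (SE 0.076, interval 0.08 to 0.39), with 0.26 in the high-fat lineage and 0.21 in the chow lineage, and as deposited these were 0.41 and 0.050. For Abcd2 the group means were 9.29 ± 0.13, 9.20 ± 0.19, 9.25 ± 0.19 and 9.37 ± 0.072 (SD, same order), and all groups overlapped. Its averaged difference was -0.016 (SE 0.069, interval -0.16 to 0.13), with 0.087 in the high-fat lineage and -0.12 in the chow lineage. Without high-fat/chow replicate 1 the averaged value was 0.027.

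Ehhadh encodes the bifunctional enzyme that carries out hydration and dehydrogenation in peroxisomal beta-oxidation of straight-chain acids. It had 7.86, 8.75, 7.69 and 7.65 in high-fat/high-fat animals, against 7.87, 8.09, 7.82 and 7.86 in high-fat/chow animals. It had 8.23, 8.08, 8.21, 7.88 and 8.02 in chow/high-fat animals, against 7.76, 7.68, 8.21, 7.85 and 7.82 in chow/chow animals. High-fat/high-fat replicate 2 stood high above its group, whose SD was 0.52. The own-diet difference was 0.15 (SE 0.118, interval -0.10 to 0.40) averaged, 0.077 in the high-fat lineage and 0.22 in the chow lineage. Without that replicate the value in the high-fat lineage was -0.18 and the averaged value 0.022. As deposited the value in the chow lineage was 0.062.

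Phyh and Hacl1 act in alpha-oxidation of branched fatty acids: Phyh hydroxylates phytanoyl-CoA, and Hacl1 cleaves the 2-hydroxy product. Phyh spanned 11.63 to 11.67 in high-fat/high-fat animals, against 11.53 to 11.68 in high-fat/chow animals, and 11.48 to 11.78 in chow/high-fat animals, against 11.64 to 11.74 in chow/chow animals. Hacl1 spanned 5.91 to 6.08 in high-fat/high-fat animals, against 5.97 to 6.14 in high-fat/chow animals, and 5.78 to 6.05 in chow/high-fat animals, against 5.89 to 6.19 in chow/chow animals. Groups of both genes overlapped in each lineage. The averaged difference was 0.019 (SE 0.046, interval -0.08 to 0.12) for Phyh and -0.093 (SE 0.052, interval -0.20 to 0.02) for Hacl1. Hacl1 was the only one of the 9 with a value below zero in both lineages, -0.061 and -0.12, although its high-fat lineage value was 0.032 as deposited.

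**Figure D2:**
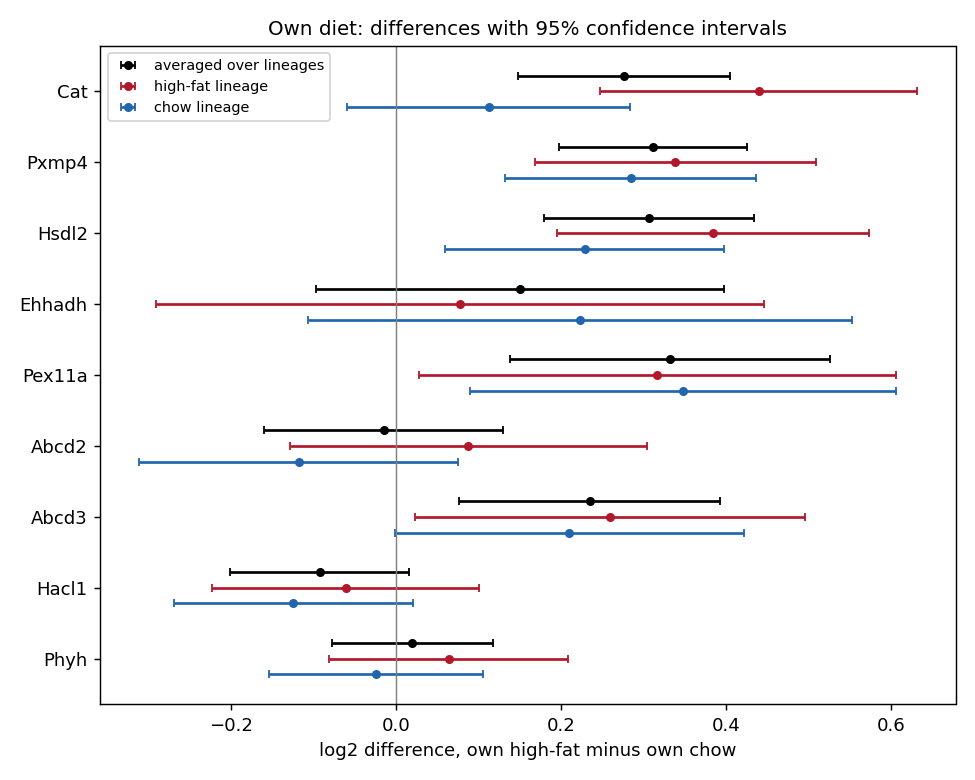
Difference between own high-fat and own chow diet for each gene (log2, own high-fat minus own chow) with its 95% confidence interval, averaged over lineages and within each. Averaged differences run from -0.093 for Hacl1 to 0.33 for Pex11a. The genes were put forward with this contrast known, so the intervals are a description and not a test.

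By role, the enzyme that removes peroxide, both membrane and division proteins, the dehydrogenase-like Hsdl2 and the transporter Abcd3 had averaged differences between 0.23 and 0.33, as the plot of own-diet differences shows. Ehhadh stood at 0.15, and the alpha-oxidation pair and Abcd2 lay between -0.093 and 0.019. Over the 9, 7 differences were above zero with a median of 0.23, whereas 48.3% of all 12642 genes were above zero with a median of -0.0028. In the high-fat lineage 8 of 9 were above zero (median 0.26), and in the chow lineage 6 of 9 (median 0.21). Groups did not overlap, own high-fat being higher, for 3 of 9 genes in the high-fat lineage (Cat, Pxmp4 and Hsdl2; 2.06% of all genes) and for 1 of 9 in the chow lineage (Pxmp4; 0.419% of all genes). The choice of the genes used this contrast, so nothing is read from these counts.

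Whether the own-diet difference itself depended on the grandfather's diet was asked by the interaction, the difference in the high-fat lineage minus that in the chow lineage. For Cat it was 0.33 (interval 0.07 to 0.58), for Hsdl2 0.16 (interval -0.10 to 0.41) and for Pxmp4 0.054 (interval -0.17 to 0.28), given without a test because these genes were chosen on its parts. As deposited the values were 0.54, 0.41 and 0.35, where the median of all genes was 0.24, and with a slow-fibre score (the mean of 7 markers) as a covariate that of Hsdl2 was 0.056. Of the 6 other genes 0 passed limma's test at an adjusted p of 0.05, as for 0% of all genes. At an unadjusted p of 0.05 also none of these 6 passed, against 6.83% of all genes. Abcd2 had the interaction farthest from zero among them, 0.21 (interval -0.08 to 0.50, limma adjusted p = 0.789). Values for Ehhadh, Pex11a, Abcd3, Hacl1 and Phyh were -0.15, -0.031, 0.050, 0.063 and 0.088.

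The titles give each array a well position, and its column was used as a block. Some positions occur in both lineages, so more than a single plate may have been used, and plates are not labelled. With the column as a block the averaged own-diet differences were 0.27 for Cat, 0.30 for Pxmp4, 0.33 for Hsdl2, 0.34 for Pex11a and 0.23 for Abcd3. Within columns 5, 7 and 9 the high-fat lineage gave 0.66, 0.58 and 0.094 for Cat, 0.43, 0.12 and 0.25 for Pxmp4, and 0.44, 0.23 and 0.44 for Hsdl2. Within columns 5 and 7 the chow lineage gave 0.21 and 0.028 for Cat, 0.25 and 0.32 for Pxmp4, and 0.41 and -0.013 for Hsdl2. Within the high-fat lineage Pex11a gave 0.36, -0.23 and 0.77 and Abcd3 0.30, -0.25 and 0.46. In the chow lineage these genes gave 0.43 and 0.25, and 0.35 and -0.037. Cat and Pxmp4 were thus above zero in each of the 5 within-column comparisons, which set 1 to 3 animals against 1 to 3, and Hsdl2, Pex11a and Abcd3 were not. The own-diet contrast on these same arrays put Cat and Pxmp4 forward, so nothing is read from their shared sign.

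The grandfather's diet was compared by a contrast that, averaged over own diets, does not depend on the own-diet difference, so all 9 genes were tested. At an adjusted p of 0.05, limma called 0 of 9 genes, against 0.198% of the 12642 genes. At an unadjusted p of 0.05 it passed 1 of 9, Cat, against 14.6% of all genes. Cat gave -0.14 (SE 0.061, interval -0.27 to -0.01, limma adjusted p = 0.298), and 2 of 8 animals lay above the mean of the chow lineage at the same own diet. Hsdl2 gave -0.11 (interval -0.24 to 0.02, limma adjusted p = 0.414) and Abcd3 -0.11 (interval -0.27 to 0.05, limma adjusted p = 0.51). Pxmp4 gave 0.043 (interval -0.07 to 0.16, limma adjusted p = 0.758). The others lay between -0.062 for Abcd2 and 0.042 for Hacl1, with limma adjusted p from 0.695 to 0.953. Of the 9 values 2 were above zero, and their median was -0.050, against -0.0027 over all genes. Beside these values, of the 4 liver markers Alb and Ttr were tested, Fgb did not pass the filter and Apoa1 was not analysed here. Alb was at 1.41 (SE 0.42, limma adjusted p = 0.135; 8 of 8 animals above) and Ttr at -0.11. Their summed intensity spanned 92.2 to 954 in high-fat/high-fat, 90.6 to 204 in high-fat/chow, 52.8 to 103 in chow/high-fat and 31.0 to 205 in chow/chow animals. Of the 9 fat-cell markers 3 lay above zero (median -0.031), and Fabp4 was at -0.26 averaged and -0.49 at own high-fat diet (limma adjusted p = 0.232 and 0.152). Of the 5 macrophage markers 4 lay above zero, with a median of 0.091. The part of these cell types in the differences between lineages was not tested.

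**Figure D3:**
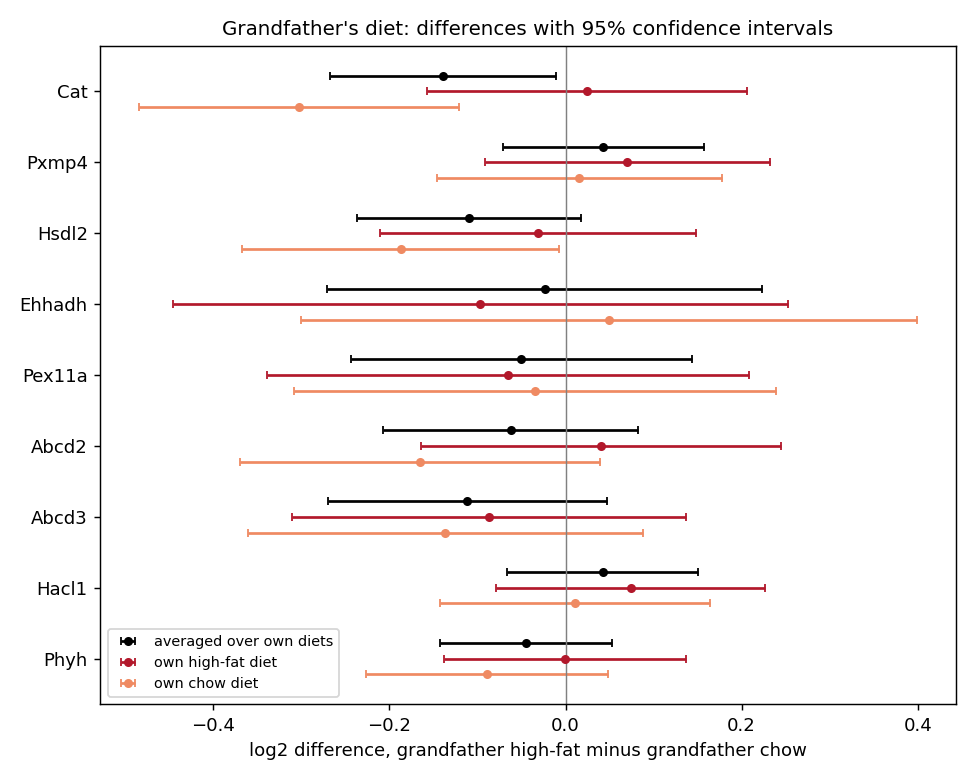
Difference between grandfathers' high-fat and chow diet for each gene (log2, grandfather high-fat minus grandfather chow) with its 95% confidence interval, averaged over own diets and at each own diet. The interval of Cat in animals on chow runs from -0.48 to -0.12, while at the own high-fat diet all 9 intervals include zero.

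Among animals that ate the high-fat diet themselves, 0 of 9 genes were called between lineages by limma, against 0% of all genes, and 0 of 9 passed an unadjusted p of 0.05, against 13.3%. Values ran from -0.097 for Ehhadh to 0.074 for Hacl1, and the smallest adjusted p was 0.708, for Hacl1. Groups did not overlap for 0 of 9 genes, against 2.37% of all genes with the high-fat lineage higher and 2.34% with it lower. Cat differed by 0.024 (interval -0.16 to 0.21) there. Among animals on chow, 0 of 9 genes were called, against 0.00791% of all genes, and 2 of 9, Cat and Hsdl2, passed an unadjusted p of 0.05, against 8.75%. The difference at own chow diet was -0.30 for Cat (SE 0.087, interval -0.48 to -0.12) and -0.19 for Hsdl2 (interval -0.37 to -0.01). For both, 0 of 4 high-fat/chow animals lay above the mean of the chow/chow animals, although the groups overlapped. In that comparison groups did not overlap for 0 of 9 genes, against 1.53% of all genes with the high-fat lineage higher and 1.75% with it lower. These same high-fat/chow animals enter the own-diet contrast by which the genes were put forward, so the 2 values are a description. Blocked by well column, Cat gave -0.30 at own chow diet, and it gave -0.36, -0.38 and -0.16 within columns 5, 7 and 9. A column may hold several plates, so the lineages may differ in plate within a column too. Without the block, Abcd2, Abcd3 and Phyh gave -0.17, -0.14 and -0.089 at own chow diet (limma adjusted p = 0.669, 0.736 and 0.732). The other values lay between -0.035 and 0.049.

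A second measure moved with some of these genes. EDL holds few slow fibres, and a slow-fibre score was taken as the mean of 7 markers (Myh7, Tnnt1, Tnni1, Tnnc1, Myl3, Atp2a2 and Myoz2), each centred over the arrays. The summed intensity of the markers spanned 3580 to 14461 in high-fat/high-fat, 4091 to 12524 in high-fat/chow, 4911 to 17368 in chow/high-fat and 8704 to 16684 in chow/chow animals. None of the 7 was called in any comparison by limma. For the own diet, 7 of 7 lay above zero in the high-fat lineage (median 0.59) and 0 of 7 in the chow lineage (median -0.34). Between lineages 0 of 7 lay above zero at own chow diet (median -1.01) and 3 of 7 at own high-fat diet (median -0.11). The high-fat/chow animals thus had the lowest mean score as well as the lowest mean Cat, Hsdl2, Pex11a, Abcd2, Abcd3 and Phyh. The lowest means of Pxmp4, Ehhadh and Hacl1 lay in other groups.

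Within groups, after subtraction of each group's mean, the slow-fibre score correlated with Hsdl2 over the 18 animals at r = 0.62 (rho = 0.69; permutation p = 0.0063, adjusted over 9 genes 0.0244) and at r = 0.65 without the 2 animals of most extreme score. Phyh gave r = 0.63 (rho = 0.72; permutation p = 0.00552, adjusted 0.0244; 0.72 without the 2) and Abcd3 r = 0.60 (rho = 0.54; permutation p = 0.00814, adjusted 0.0244; 0.60 without the 2). Ehhadh and Pex11a both gave r = 0.53 (permutation p = 0.0245 and 0.0253, adjusted 0.0455 each), and 0.41 and 0.42 without the 2. By Spearman's rho only Hsdl2 and Phyh kept an adjusted permutation p under 0.05, at 0.0085 and 0.00729. Cat gave r = -0.25 (rho = -0.13; permutation p = 0.307, adjusted 0.345) and -0.029 without the 2 animals. Pxmp4 gave r = 0.23 (permutation p = 0.355). The tests were two-sided with 100000 resamples, and the deviations of a group sum to zero, so they are not fully independent. How many of all tested genes follow the score was not examined. The correlations are therefore not read as particular to these 9 genes.

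**Figure D4:**
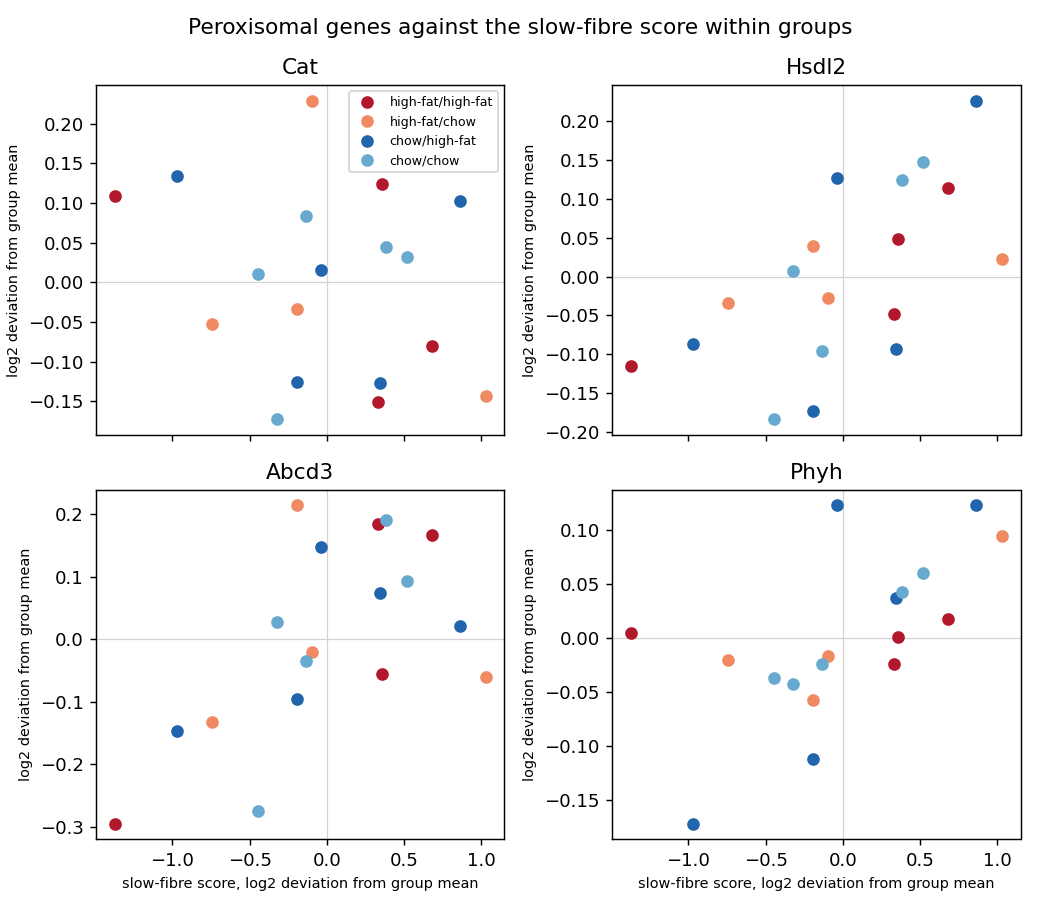
Deviation of 4 genes from their group mean (log2, vertical) against the deviation of the slow-fibre score from its group mean (log2, horizontal); each dot is an animal, coloured by group. Hsdl2, Abcd3 and Phyh lie higher in animals with a higher score (r = 0.62, 0.60 and 0.63), and Cat does not (r = -0.25).

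With the score as a covariate, added after seeing the data, the averaged own-diet differences were 0.28 for Cat, 0.31 for Pxmp4, 0.29 for Hsdl2, 0.31 for Pex11a, 0.21 for Abcd3 and 0.12 for Ehhadh. The difference between lineages at own chow diet was then -0.35 for Cat and -0.076 for Hsdl2, against -0.30 and -0.19 without the covariate. For Abcd3 it was 0.0080 in place of -0.14. Of the 8 genes listed as fast-fibre markers 0 lay above zero for the averaged own diet, with a median of -0.033. Of 10 fat-cell markers 9 passed the filter (Lep did not), 7 of 9 lay above zero with a median of 0.030, and Adipoq gave 0.030 (SE 0.19). Their summed intensity spanned 5019 to 6980 in high-fat/high-fat, 4614 to 6355 in high-fat/chow, 5359 to 6549 in chow/high-fat and 6130 to 7074 in chow/chow animals. Most of this sum was Car3, with a mean intensity of 4535 over all arrays, against 934 for Lpl and 398 for Fabp4. The sum therefore mainly follows Car3 and is not read as an amount of fat cells. Macrophage markers gave 0 of 5 above zero, with a median of -0.22. The part of fat cells and macrophages in the differences was not tested.

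The 9 genes were also compared with each other after group means were subtracted. Of 36 pairs 29 had a positive r, with a median of 0.29 and a range from -0.40 to 0.68, over the 18 arrays, while all pairs of tested genes had a median of -0.00014 and quartiles of -0.21 and 0.21. The most alike pair was Hsdl2 and Phyh (r = 0.68, rho = 0.65, permutation p adjusted over 36 pairs 0.0587; 0.62 without the 2 most extreme animals), and 0 of 36 pairs passed 0.05 after adjustment, against 5 before it. All genes of an animal share its array. The genes most like Cat in this sense were B4galt6, which makes lactosylceramide (r = 0.87, rho = 0.91), Mlf2 (r = 0.84), the lysosomal sialidase Neu1 (r = 0.79), the transcriptional repressor Bhlhe40 (r = 0.79) and Nepro (r = 0.79). They are the extreme of 12641 genes whose r with Cat ran from -0.85 to 0.87, with a median of 0.0045, and none is one of the 9.

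Around the 9 genes, a list of 71 other peroxisomal genes was examined, of which 47 were tested, 15 had no probe set with a single symbol and 9 did not pass the filter on dim genes. For the averaged own diet, 1 of 47 was called higher and 0 lower by limma, against 0.0158% of all genes. The one was Nudt7, which hydrolyses coenzyme A and acyl-CoA in peroxisomes and was known from earlier results of these data to pass. Nudt7 measured 8.83, 9.06, 8.58 and 8.25 in high-fat/high-fat animals, against 8.04, 8.22, 8.02 and 7.92 in high-fat/chow animals. It measured 8.81, 8.87, 8.41, 8.92 and 8.59 in chow/high-fat animals, against 8.42, 8.04, 8.02, 7.83 and 8.15 in chow/chow animals. The high-fat lineage groups did not overlap, and the chow lineage groups overlapped by 1 animal on each side. It rose by 0.63 (SE 0.10, interval 0.42 to 0.84; limma adjusted p = 0.0328), a fold of 1.55, and 9 of 9 animals on the high-fat diet exceeded the mean of chow-fed animals of the same lineage. The call was lost when any of 14 of the 18 arrays was left out, with limma adjusted p up to 0.114. The call held without chow/chow replicate 1 or 3, chow/high-fat replicate 3 or high-fat/high-fat replicate 4. Over all 18 leave-outs the difference ran from 0.57 to 0.70.

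The list's direction differed by role, as counts. Of the 16 tested genes of beta-oxidation, 13 lay above zero with a median of 0.11 and 8 passed an unadjusted p of 0.05. The role is the one given in the list, which places the hydrolase Nudt7 here. RNA levels do not show in which organelle these enzymes act. Of 15 genes of biogenesis and division 12 lay above zero, with a median of 0.023. The 9 oxidases and antioxidants had 4 above zero (median -0.0023), the 4 genes of ether lipids and isoprenoids 1 (median -0.024) and the 3 transporters 2 (median 0.016). Over the 47 genes 32 were above zero, with a median of 0.029, and 11 passed an unadjusted p of 0.05, against 6.73% of all genes. The list was drawn up with earlier results of these data known, so nothing is read from these own-diet counts. After Nudt7 the genes of smallest p were Crat, Mlycd, Eci2, Ech1 and Pex19. Crat exchanges acyl groups between carnitine and coenzyme A, and gave 0.19 (SE 0.039, limma adjusted p = 0.0985). Mlycd, malonyl-CoA decarboxylase, gave 0.49 (SE 0.10, limma adjusted p = 0.0985). The isomerases Eci2 and Ech1 gave 0.38 and 0.36 (SE 0.088 each, limma adjusted p = 0.216 and 0.246). Pex19, the receptor for peroxisomal membrane proteins, gave 0.23 (SE 0.063, limma adjusted p = 0.343). In the other 6 comparisons 0 of 47 genes were called by limma, against 0 to 0.198% of all genes. At an unadjusted p of 0.05, 3 of 47 passed for the interaction, against 6.83% of all genes. Between lineages 12 of 47 passed at own high-fat diet, against 13.3% of all genes, and 1 at own chow diet, against 8.75%. For the grandfather's diet averaged over own diets, 8 of 47 passed an unadjusted p of 0.05, against 14.6% of all genes.

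**Figure D5:**
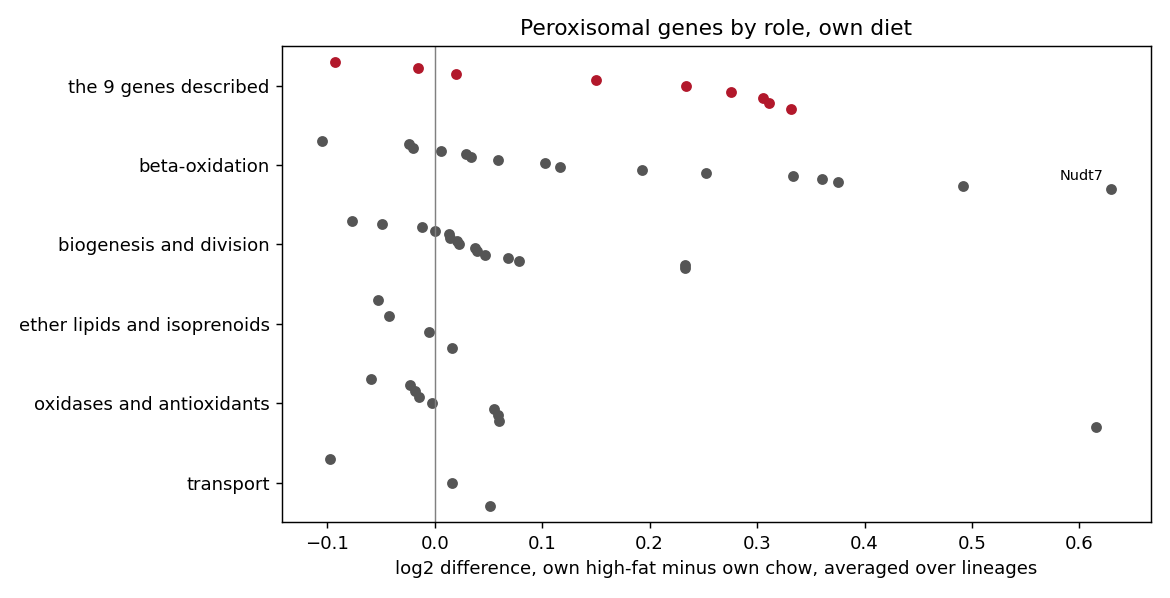
Averaged own-diet difference (log2, own high-fat minus own chow) of the 9 genes described and of 47 other peroxisomal genes by role; each dot is a gene, and the gene called by limma is named. Beta-oxidation genes reach 0.63 (Nudt7) with a median of 0.11, and most genes of ether lipids and of biogenesis lie near zero.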

How the data were processed

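The EDL muscle of 18 rats was profiled on Affymetrix whole-transcript arrays, 1 array per animal, from 200 ng of RNA per the labels' protocols. The deposited table holds intensity values on a linear scale for 20917 probe sets, which the authors made with Affymetrix Expression Console and PLIER, per the submitters' processing notes. Versions, settings and genome build are not given in the sources used here. The offset added before the log understates differences of dim genes.

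Values were taken as log2(intensity + 16), quantile-normalized, restricted to probe sets with 1 symbol (18197), reduced to the brightest probe set of each gene, and filtered at the 25th percentile of gene means (12642 genes kept). A group-means model was fitted to all 18 arrays with limma 3.58.1 in R 4.3.3 (lmFit, eBayes, two-sided, Benjamini-Hochberg over the 12642 genes within each of 7 comparisons, threshold 0.05); the fit was tested on simulated data. Replicate numbers follow accession order and only name an animal. No copied array was found: in 32 within-group pairs of arrays, log2 differences had an SD of 0.196 or more, and identical values made up 0.0908% or less. The members and lists were chosen with earlier results of these data known. Named are the 9 genes, other peroxisomal genes past the threshold in any comparison or among the 6 of smallest p for the averaged own diet, and the 5 genes of highest r with Cat; Ephx2 was chosen after its values were seen. Symbols come from the probe table supplied with the series, and promoters from RefSeq (GRCr8). Alternatives were the table as deposited, centring on array medians, offsets of 1 and 64, no filter and a 50th-percentile filter, array weights, every probe set, eBayes with trend and robust options, the well column as a block, animal numbers 3 or fewer apart as a random block, and each array left out. Leaving out the 2 arrays of lowest median and the slow-fibre score as a covariate were chosen after seeing the data.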

Additional observations from a re-analysis of the deposited data

Results flagged for a closer look

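In chow/chow animals the Cat level of replicate 2 was 11.36, apart from the other 4 animals, which lay between 11.54 and 11.61. In high-fat/chow animals the Crat level of replicate 2 was 11.95, apart from the other 3 animals, the nearest of which had 12.00. Both stood out as 1 animal far from the rest of its group for its range. In all, 60 groups of animals were examined in this way and 2 stood out, where chance gives about 1 in 20.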

How the results depend on the processing

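The labels give the groups no shared replicate numbers, so pairing was examined through neighbouring animal numbers, fitted as a random block. No gene of the 9 was called for the grandfather's diet in the 13 other alternatives or 18 leave-outs, except that Hacl1 was not tested under the 50th-percentile filter. The averaged own-diet values of Cat, Pxmp4, Hsdl2, Ehhadh, Pex11a, Abcd3 and Phyh stayed above zero in all of them, down to 0.0026 for Phyh. The genes were put forward with this contrast known, so nothing is read from the shared sign. Counts over all genes were unstable. For the averaged own diet (2 genes) limma called 4 as deposited, 5 centred on array medians, 0 with an offset of 1, 6 with an offset of 64, 6 with array weights, 5 with trended and robust eBayes, 15 with the well column as a block, 14 with neighbouring animal numbers as a random block (8 neighbouring pairs, consensus correlation 0.13), 0 without the 2 arrays of lowest median, 9 with the slow-fibre covariate, and 0 to 14 leaving out 1 array (14 without high-fat/high-fat replicate 4). For the own diet in the high-fat lineage (0) leaving out 1 array gave 0 to 1, and in the chow lineage (0) the table as deposited gave 1 and the slow-fibre covariate 2. For the averaged grandfather's diet (25) it was 0 as deposited, centred, with an offset of 1, with the well column, with neighbouring numbers and without the 2 arrays; it was 1 with the slow-fibre covariate, 38 with an offset of 64, 41 with the 50th-percentile filter, 66 with all probe sets, 252 with array weights, 43 with trended and robust eBayes, and 0 to 303 leaving out 1 array (303 without high-fat/chow replicate 1). At own high-fat diet (0) it was 1689 as deposited (1686 higher, 3 lower, where the median of all genes shifted by 0.18), 1 with an offset of 1, 9 with all probe sets and 0 to 56 leaving out 1 array. At own chow diet (1) it was 0 as deposited, with offsets of 1 and 64, with all probe sets and with the well column, and 0 to 2 leaving out 1 array; the interaction (0) gave 1 as deposited, where the median of all genes shifted by 0.24.

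Among other peroxisomal genes (1 called, own diet) the count was 0 with an offset of 1 and without the 2 arrays, 2 with an offset of 64 and with trended and robust eBayes, 4 with the well column, 3 with neighbouring numbers and 0 to 4 leaving out 1 array. Nudt7 missed the threshold with an offset of 1 (0.66, limma adjusted p = 0.0554) and without the 2 arrays (0.62, limma adjusted p = 0.0973). Mlycd, Eci2 and Ech1 passed with the well column and without high-fat/high-fat replicate 4, Mlycd and Crat with neighbouring numbers, and Crat with an offset of 64 and with trended robust eBayes. Small values of the grandfather's diet changed sign in some settings. As deposited these were, at own high-fat diet, Hsdl2 0.14, Ehhadh 0.14, Pex11a 0.14, Abcd3 0.16 and Phyh 0.11; at own chow diet, Pxmp4 -0.053, Ehhadh -0.0082 and Hacl1 -0.037; averaged, Ehhadh 0.068, Pex11a 0.026 and Abcd2 0.022; and in the interaction, Ehhadh 0.15 and Pex11a 0.24. The median of all genes as deposited was 0.18 at own high-fat diet, -0.056 at own chow diet, 0.059 averaged and 0.24 in the interaction. Centred, the changed values were Cat -0.028 at own high-fat diet, Pxmp4 -0.017 at own chow diet, Ehhadh 0.0011 averaged and Pex11a 0.028 in the interaction. With array weights, Pxmp4 was -0.022 and Hacl1 -0.017 at own chow diet. Without the 2 arrays, Cat was -0.012, Abcd2 -0.0016 and Phyh 0.0016 at own high-fat diet, and Pex11a 0.0052 in the interaction. With the slow-fibre covariate, Ehhadh was 0.091 and Pex11a 0.038 averaged, Pex11a 0.12 and Abcd3 0.0080 at own chow diet, Phyh 0.0066 at own high-fat diet and Abcd3 -0.080 in the interaction. Leaving out 1 array gave ranges across zero at own high-fat diet for Cat (-0.017 to 0.075), Pxmp4 (-0.00013 to 0.12), Hsdl2 (-0.074 to 0.025), Ehhadh (-0.35 to 0.016), Pex11a (-0.14 to 0.024), Abcd2 (-0.024 to 0.098), Abcd3 (-0.15 to 0.011) and Phyh (-0.044 to 0.030). At own chow diet they were Pxmp4 (-0.043 to 0.065), Ehhadh (-0.010 to 0.14), Pex11a (-0.13 to 0.086) and Hacl1 (-0.036 to 0.046). Averaged, they were Ehhadh (-0.15 to 0.032) and Pex11a (-0.097 to 0.010), and in the interaction Pxmp4 (-0.016 to 0.11), Pex11a (-0.15 to 0.062) and Abcd3 (-0.012 to 0.15). The Pxmp4 interaction was also -0.0046 with the well column. The cause of these changes was not tested. With 4 or 5 animals a group, the number of arrays limits every value.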

Other observations

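Among the other peroxisomal genes, Ephx2, an epoxide hydrolase of peroxisome and cytosol, had the second highest averaged own-diet difference, 0.62 (SE 0.27, limma adjusted p = 0.718). It did not pass the threshold. The lowest value on that list was that of Pecr, a peroxisomal trans-2-enoyl-CoA reductase, at -0.11.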
